A study of Arabidopsis thaliana with 6 samples.

Results

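The class III homeodomain-leucine zipper (HD-ZIP III) genes *PHABULOSA* (*PHB*), *PHAVOLUTA* (*PHV*), *REVOLUTA* (*REV*), *ATHB8* and *CORONA* (*CNA*) and the little zipper genes *ZPR1* to *ZPR4* were followed in second internodes of the Arabidopsis stem upon activation of the transcription factor ARF5. These 9 genes were found by their identifiers among 33318 gene entries (AT2G34710 for *PHB*, AT1G30490 for *PHV*, AT5G60690 for *REV*, AT4G32880 for *ATHB8*, AT1G52150 for *CNA*, and AT2G45450, AT3G60890, AT3G52770 and AT2G36307 for *ZPR1*, *ZPR2*, *ZPR3* and *ZPR4*), and all 9 passed the filter on low counts that left 19347 genes for testing. Every library came from Col-0 plants carrying *pPXY:GR-ARF5∆III/IV*, which were 15 to 20 cm tall after 3 weeks in short days and a transfer to long days. In this line a truncated ARF5, without the domains through which AUX/IAA repressors bind it, is made under the *PXY* promoter, which is active in stem cells of the cambium. Its fusion to a glucocorticoid receptor holds it outside the nucleus until dexamethasone (Dex) is given. There were 3 mock libraries and 3 libraries of plants treated with 15 µM Dex for 3 h. Dex-treated plants without the transgene were not analysed here, so effects of Dex itself and of the transgene cannot be told apart.

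HD-ZIP III proteins are transcription factors that bind DNA as dimers through a homeodomain and a leucine zipper and carry a START domain, a fold known for lipid binding. They are known for setting upper (adaxial) leaf identity and for patterning vascular bundles, in which they promote xylem formation. Their transcripts are cut by the microRNAs miR165 and miR166. Little zipper proteins have a leucine zipper but no homeodomain, so a dimer of a little zipper and an HD-ZIP III protein cannot bind DNA, and HD-ZIP III proteins are known to raise *ZPR* transcription, which closes a negative feedback loop.

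The microRNA and its sites are shown because they set the HD-ZIP III genes apart from the little zipper genes in sequence. The mature microRNAs below were read from the RefSeq annotation of TAIR10.1, 5′ to 3′, with the seed (bases 2 to 8) in capitals. The same miR165 sequence came from 2 loci and the same miR166 sequence from 7, and both microRNAs share 1 seed.
miR165a: uCGGACCAggcuucauccccc
miR166a: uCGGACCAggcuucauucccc

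The best matching site of each HD-ZIP III transcript is given 5′ to 3′ as the transcript strand in DNA letters. Capitals mark bases other than the exact complement of miR165a. Such bases are counted as mismatches below, with G:U pairs included. Each site lies in the coding sequence and is split over an exon junction, so the genomic span given with it includes an intron.
*PHB*, chr2:14642530-14642666, minus strand: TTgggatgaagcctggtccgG
*PHV*, chr1:10799330-10799445, minus strand: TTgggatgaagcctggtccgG
*REV*, chr5:24398787-24398898, plus strand: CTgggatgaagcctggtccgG
*ATHB8*, chr4:15866872-15866974, minus strand: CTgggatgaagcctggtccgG
*CNA*, chr1:19412976-19413085, minus strand: CTggAatgaagcctggtccgG

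The sites of *PHB* and *PHV* were the same, as were those of *REV* and *ATHB8*, and these 4 sites had 3 mismatches each to miR165a. Counted from the 5′ end of miR165a, with the base of the microRNA first and that of the site last, *PHB* and *PHV* had U1G, C20U and C21U, whereas *REV* and *ATHB8* had U1G, C20U and C21C. The site of *CNA* had C17A in addition, which makes 4 mismatches to miR165a but 3 to miR166a, to which the other 4 sites had 4. Of the mismatches to miR165a, 1 in each HD-ZIP III site (U1G) was a G:U pair. Of those to miR166a, *CNA* had 1 G:U pair and the other 4 sites had 2 each. A site with at most 3 mismatches to miR165a was found in 4 of 31728 transcripts, one for each gene, and all 4 were HD-ZIP III transcripts. The best sites in the 4 *ZPR* transcripts had 8 to 10 mismatches to miR165a. These matches describe the letters only, as cleavage was not measured.

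Sequencing depth was 22871927 to 32099136 gene reads per library. Over all tested genes 895 were higher and 400 lower in Dex than in mock libraries at an adjusted p under 0.05, and the second mock library stood apart from the other mock libraries. The summed level of 6 green cortex markers was 10065 CPM (reads per 1000000 gene reads, with TMM-scaled library sizes) in mock replicate 2, 16915 and 18069 CPM in the other mock libraries and 8018 to 11130 CPM in the Dex libraries, and the summed level of 6 epidermis markers was 499 CPM in mock replicate 2 against 781 and 839 CPM in the other mock libraries and 418 to 563 CPM in the Dex libraries. No gene of either list passed the edgeR test, although 3 of 5 tested epidermis markers and 3 of 6 green cortex markers had an unadjusted p under 0.05, and the epidermis gene *PDF1* had no reads. The tissue markers of cambium (4 genes), phloem (5 genes) and xylem (8 genes) were all detected, with summed levels that overlapped between groups, and 1 of them, the xylem vessel regulator *VND6*, passed the test, with a fall of 2.36 ± 0.43 (SE) on the log2 scale (adjusted p = 0.0153). Of 5 tapetum markers 4 had no reads. *GRP17*, which encodes a pollen coat protein, had 0 CPM in the mock libraries and 1.499 to 3.27 CPM in the Dex libraries, and passed the edgeR test as higher (adjusted p = 0.00357). The parts of these tissue signals in the results below were not tested. *ARF5*, whose own transcript and the transgene's cannot be separated in these counts, ranged from 231 to 277 CPM upon mock and from 205 to 230 CPM upon Dex treatment (adjusted p = 0.252).

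Upon Dex treatment 4 of 5 HD-ZIP III genes rose and none fell, while none of the 4 little zipper genes passed the test in either direction. Over all tested genes, 4.63% were called higher and 2.07% lower. No little zipper gene had an unadjusted p under 0.05 in edgeR, a level at which 12.4% of all tested genes were higher and 10.2% lower, whereas *ZPR1* had an unadjusted p of 0.0338 with DESeq2 and 0.0303 with limma-voom. None passed after adjustment with DESeq2 or limma-voom, which called the same 4 HD-ZIP III genes higher and, over all genes, 7.23% and 4.53% higher and 4.9% and 1.66% lower. The 4 genes that rose, *ATHB8*, *PHV*, *PHB* and *REV*, were higher in every Dex library than in every mock library, which held in this direction for 15.2% of all tested genes. At an adjusted p under 0.01, which 1.58% of all tested genes passed as higher, the HD-ZIP III genes called were *ATHB8* and *PHV*. Because whole internodes were measured, more cells that express a gene and more of its RNA in each cell cannot be told apart.

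**Figure D1:**
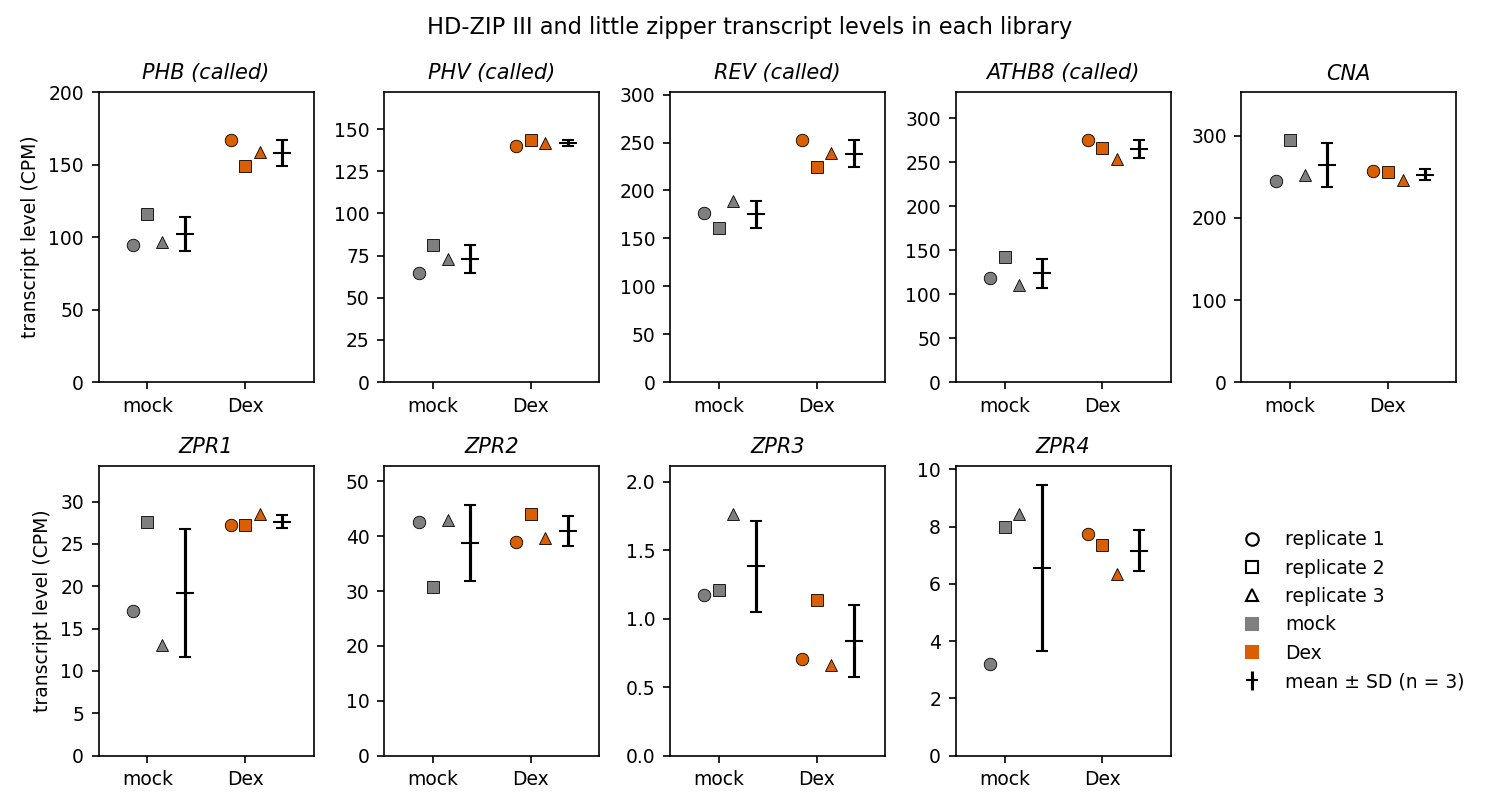
Transcript levels in CPM (vertical axes starting at 0) of the 9 genes in 3 mock (grey) and 3 Dex (orange) libraries, with the mean ± SD of each group. *PHB*, *PHV*, *REV* and *ATHB8* show no overlap between groups and passed the test, whereas the groups of *CNA*, *ZPR1*, *ZPR2* and *ZPR4* overlap and *ZPR3*, without overlap, did not pass.

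*ATHB8* (chr4:15863339-15868650, minus strand), which marks procambium and xylem precursor cells and is known as a direct target of ARF5, showed the largest rise of the 9 genes. Its level was 119, 142 and 111 CPM in the mock libraries and 275, 266 and 254 CPM in the Dex libraries. The lowest Dex library thus lay far above the highest mock library, and the mean went from 124 ± 16.1 CPM to 265 ± 10.6 CPM (SD, n = 3). The change was 2.14-fold, with a 95% interval of 1.78 to 2.58 (1.10 ± 0.12 (SE) on the log2 scale, adjusted p = 0.00124). Reads across exon junctions made up 25.5% ± 2.4 of its exon reads in mock and 25.6% ± 1.1 in Dex libraries (SD, n = 3). Intron reads were few, with 1, 12 and 9 in the mock and 51, 7 and 16 in the Dex libraries, and those of the groups overlapped.

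*PHV* (chr1:10796124-10801093, minus strand), which acts redundantly with *PHB* in adaxial leaf fate and in the shoot meristem, had 64.6, 81.5 and 72.8 CPM in the mock libraries and 140, 143 and 141 CPM in the Dex libraries. The Dex libraries were nearly identical to each other, and all lay above the mock libraries. The change was 1.94-fold, with a 95% interval of 1.64 to 2.30 (0.96 ± 0.11 (SE) on the log2 scale, adjusted p = 0.00145). *PHV* had few intron reads, with unscaled counts of 5, 2 and 0 in the mock libraries and 17, 15 and 12 in the Dex libraries. Those of *PHB* (4, 8 and 2 in mock, 2, 6 and 3 in Dex libraries) and of *REV* (16, 9 and 7 in mock, 20, 15 and 9 in Dex libraries) overlapped between groups. Intron reads were not tested, and counts this small carry no conclusion.

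*PHB* (chr2:14639323-14644355, minus strand) had 94.8, 116 and 96.5 CPM in the mock libraries and 167, 149 and 159 CPM in the Dex libraries. The groups did not overlap, and mock replicate 2 was the highest of the mock libraries, as it was for *ATHB8* and *PHV*. The rise was 1.55-fold, with a 95% interval of 1.299 to 1.84 (0.63 ± 0.11 (SE) on the log2 scale, adjusted p = 0.0137). The call of *PHB* was lost when any library other than mock replicate 2 was left out, with adjusted p of 0.05004 to 0.0623, and without mock replicate 2 its adjusted p was 0.00182.

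*REV* (chr5:24396981-24402195, plus strand), which is required for interfascicular fibre formation and for lateral meristems, had 176, 161 and 189 CPM in the mock libraries and 252, 224 and 239 CPM in the Dex libraries. Here mock replicate 2 was the lowest library, and again the groups did not overlap. The rise was 1.36-fold, with a 95% interval of 1.15 to 1.61 (0.44 ± 0.11 (SE) on the log2 scale, adjusted p = 0.0437). This call rested close to the threshold and was lost when any library but mock replicate 2 was left out (adjusted p = 0.0666 to 0.154). The 3′ end of *REV* overlaps the gene *AT5G60700* on the other strand, and whether the counting used strand is not given in the sources used here, so reads of the overlap cannot be assigned. *AT5G60700* itself had a mean level of 25.0 CPM after mock and of 20.1 CPM after Dex treatment, a fold change in the other direction from that of *REV* (−0.31 ± 0.11 (SE) on the log2 scale, adjusted p = 0.126).

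*CNA* (chr1:19409688-19414764, minus strand), which restrains stem cell number in the shoot meristem together with *PHB* and *PHV* and is expressed in developing vasculature, was the HD-ZIP III gene that did not pass the test. Its level was 244, 295 and 253 CPM in the mock libraries and 257, 256.03 and 246 CPM in the Dex libraries. The Dex libraries lay within the range of the mock libraries. The change was −0.06 ± 0.11 (SE) on the log2 scale (adjusted p = 0.783), and its 95% interval of 0.81 to 1.14-fold did not reach the lower bound of *ATHB8*, *PHV*, *PHB* or *REV*.

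**Figure D2:**
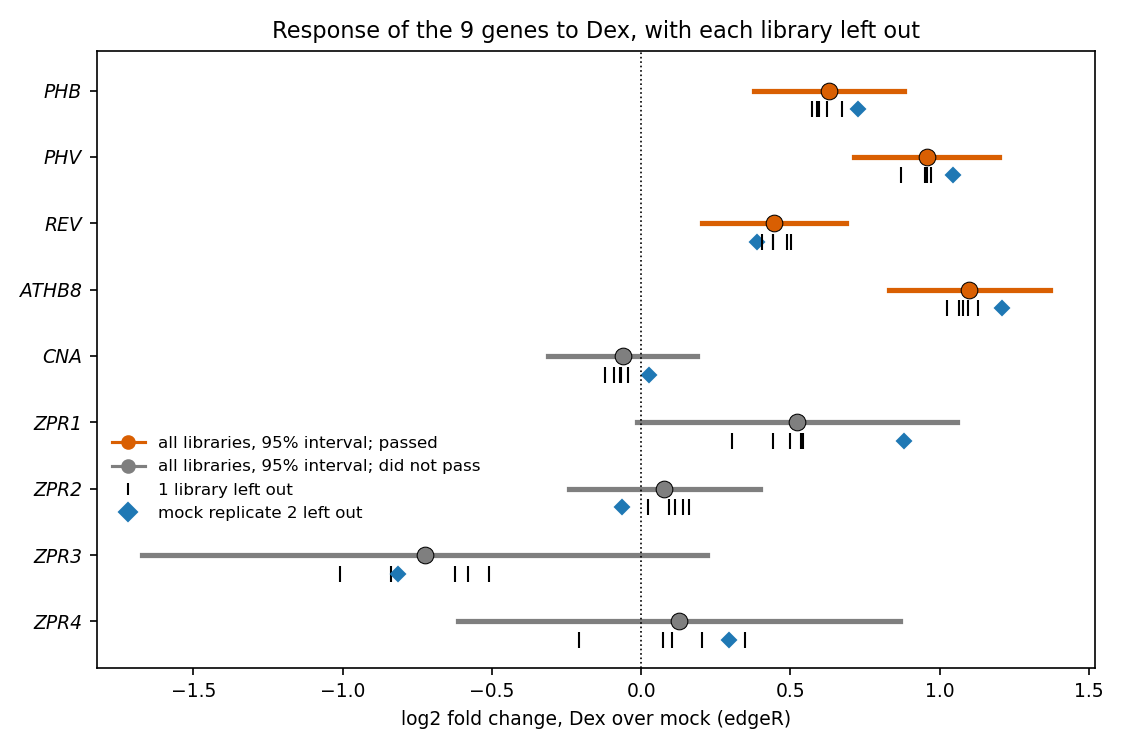
Log2 fold changes of Dex over mock for the 9 genes (circles, with 95% intervals from edgeR; orange where the gene passed the test) and, below each, the values with 1 library left out (blue diamonds for mock replicate 2). The intervals of *PHB*, *PHV*, *REV* and *ATHB8* lie above 0, that of *CNA* spans 0 from −0.31 to 0.19, and *ZPR1* moves from 0.52 to 0.88 when mock replicate 2 is left out.

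In coding sequence the 5 HD-ZIP III genes fell into pairs that did not follow the response. *PHB* and *PHV* shared 84.6% of aligned bases and *ATHB8* and *CNA* 74.2%, whereas all other pairs shared 68.1% to 70.9%. *PHB* and *PHV* both rose, whereas of the other pair *ATHB8* had the largest change of the family and *CNA* the smallest. Reads were seldom ambiguous between these genes, as 99.7% to 100% of their reads were mapped uniquely.

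To see whether *ATHB8* changed relative to its homologues within each library, the log2 ratio of its CPM to that of each other HD-ZIP III gene was compared between groups. With 3 libraries in each group the exact two-sided permutation test cannot go below p = 0.1. The ratio of *ATHB8* to *CNA* was −1.04, −1.05 and −1.19 in the mock libraries and 0.10, 0.06 and 0.05 in the Dex libraries. This shift of 1.16 on the log2 scale, or 2.24-fold, was the largest of the 4, and the groups were far apart (exact permutation p = 0.1, 0.133 adjusted over 4 ratios). The ratio to *REV* went from a mean of −0.51 ± 0.30 to 0.15 ± 0.08 (SD, n = 3), and mock replicate 2 lay between the other libraries of both groups. The ratio to *PHB* went from 0.27 ± 0.07 to 0.75 ± 0.08 (SD, n = 3), without overlap, and had the same p as those to *CNA* and *REV*. The ratio to *PHV* had means of 0.76 ± 0.14 and 0.90 ± 0.06 (SD, n = 3) and overlapped between groups (exact permutation p = 0.2). None of the 4 ratios could pass a threshold of 0.05 in this design, so their p do not show whether the responses differed.

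**Figure D3:**
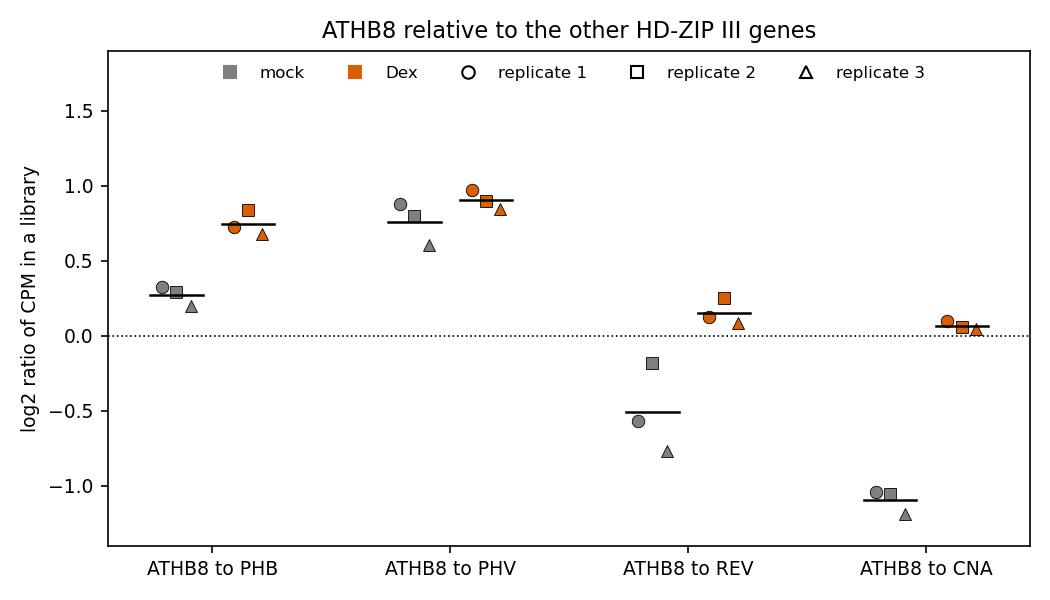
Log2 ratio of the CPM of *ATHB8* to that of *PHB*, *PHV*, *REV* and *CNA* in each mock (grey) and Dex (orange) library, with horizontal bars at group means. The ratio to *CNA* shifts by 1.16 between group means and that to *PHV* by 0.14, with overlapping groups.

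Upstream of the transcription start the sequences of *ATHB8* and *CNA*, the pair whose responses were most unlike, are shown as the 250 bases before the RefSeq start in TAIR10.1, 5′ to 3′ along the gene, with capitals at TGTC and its reverse complement GACA, the core bound by ARF proteins.
*ATHB8*, chr4:15868651-15868900, minus strand: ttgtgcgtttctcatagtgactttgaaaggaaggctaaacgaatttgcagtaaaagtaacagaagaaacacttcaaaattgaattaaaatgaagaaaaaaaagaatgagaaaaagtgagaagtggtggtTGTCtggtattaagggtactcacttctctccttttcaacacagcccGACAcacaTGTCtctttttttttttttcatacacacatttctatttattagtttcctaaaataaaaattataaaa
*CNA*, chr1:19414765-19415014, minus strand: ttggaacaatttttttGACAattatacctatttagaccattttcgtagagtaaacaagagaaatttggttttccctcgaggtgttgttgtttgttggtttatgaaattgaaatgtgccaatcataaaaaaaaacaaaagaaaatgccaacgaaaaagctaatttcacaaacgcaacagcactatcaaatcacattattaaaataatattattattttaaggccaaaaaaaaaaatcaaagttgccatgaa

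The longer motifs TGTCTC and TGTCGG, which both contain TGTC, were searched on both strands from 250 bases before to 50 bases after the start. *ATHB8* held TGTCTC starting at −67 and TGTCGG, read on the other strand, at −77, so that the motifs lay next to each other. *PHB*, *PHV*, *CNA*, *ZPR1* and *ZPR3* held neither in this window, so genes that rose and genes that did not pass were both among those without a match. Of the others *REV* had TGTCGG at 28 bases after the start, *ZPR2* had TGTCTC at 28 bases after it and *ZPR4* had TGTCTC at −28. TGTCTC occurred in 14.2% of 27443 promoters of protein-coding genes in the same window and TGTCGG in 5.12%, whereas TGTC alone occurred in 81.5%. TGTC had 4 matches in *ZPR1* and in *ZPR4*, 3 in *ATHB8* and in *REV*, 2 in *PHB*, *PHV* and *ZPR2* and 1 in *CNA* and in *ZPR3*, against a median of 2. Genes that did not pass thus had both the most and the fewest matches. In the 1000 bases before the start, TGTCTC had 2 matches in *CNA*, 1 in each of *ATHB8*, *PHV*, *REV*, *ZPR3* and *ZPR4* and 0 in *PHB*, *ZPR1* and *ZPR2*. It occurred there in 39.6% of protein-coding genes. A match describes letters and is not a bound site, and no match says only that these letters are not in the window.

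Among the little zipper genes *ZPR1* (chr2:18733275-18734341, minus strand) had 17.1, 27.6 and 13.0 CPM in the mock libraries and 27.2, 27.2 and 28.6 CPM in the Dex libraries. The Dex libraries were alike, and mock replicate 2, the library that stood apart in the cortex and epidermis markers, was as high as they were. The fold change was 0.52 ± 0.24 (SE) on the log2 scale and did not pass (adjusted p = 0.233). Without mock replicate 2 it was 0.88 and passed with an adjusted p of 0.00326, so 1 library decided this call. Without that library 9.79% of all tested genes were called higher.

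*ZPR2* (chr3:22496875-22498099, minus strand) had 42.6, 30.8 and 43.0 CPM in the mock libraries and 38.9, 44.1 and 39.8 CPM in the Dex libraries. The groups overlapped, with mock replicate 2 the lowest of all libraries (0.08 ± 0.14 (SE) on the log2 scale, adjusted p = 0.788). The 95% interval of 0.85 to 1.32-fold did not include the 1.94-fold estimate of *PHV* or the 2.14-fold estimate of *ATHB8*.

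*ZPR3* (chr3:19557516-19559323, minus strand) and *ZPR4* (chr2:15218040-15219415, minus strand) had the fewest reads of the 9 genes, with 17 to 41 and 71 to 205 in a library. *ZPR3* had 1.17, 1.21 and 1.77 CPM in the mock libraries and 0.71, 1.14 and 0.66 CPM in the Dex libraries, so that every Dex library was below every mock library, as for 12.1% of all tested genes, but the change did not pass (−0.72 ± 0.42 (SE) on the log2 scale, adjusted p = 0.342). *ZPR4* had 3.21, 7.98 and 8.45 CPM in the mock libraries and 7.74, 7.37 and 6.35 CPM in the Dex libraries, where mock replicate 1 alone was low (0.13 ± 0.33 (SE) on the log2 scale, adjusted p = 0.861). Without that library the change of *ZPR4* was −0.21 ± 0.19 (SE) on the log2 scale (adjusted p = 0.638). With all libraries a change of *ZPR3* between 0.31 and 1.17-fold and of *ZPR4* between 0.65 and 1.82-fold lay inside the 95% interval. *ZPR4* is annotated as a non-coding RNA in RefSeq and has no exon length in the deposited tables, so no level per length was computed for it.

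Levels of different genes were compared as exon reads per kilobase of exon, scaled to library size as for CPM. In the mock libraries *ZPR2* had the highest level of the 8 genes with an exon length, at 109 ± 19.4 (SD, n = 3), followed by *CNA* at 75.1 ± 7.6, *REV* at 50.02 ± 4.0, *ATHB8* at 40.9 ± 5.3, *PHB* at 33.4 ± 3.8, *ZPR1* at 25.5 ± 9.9, *PHV* at 24.8 ± 2.9 and *ZPR3* at 2.86 ± 0.69. The neighbours *REV* and *ATHB8*, *ATHB8* and *PHB*, *PHB* and *ZPR1*, and *ZPR1* and *PHV* overlapped in these libraries and are not ordered beyond their spread. In the Dex libraries *ATHB8* stood second with a level per length of 87.4 ± 3.4 (SD, n = 3), above *CNA* at 72.0 ± 1.8 and *REV* at 68.0 ± 3.9, which overlapped. *PHB* at 51.6 ± 2.9 and *PHV* at 48.2 ± 0.5 also overlapped, whereas *ZPR1* at 36.5 ± 1.1 lay below both and *ZPR3* at 1.54 ± 0.45 was again the lowest.

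The summed level per length of the 5 HD-ZIP III genes was 212, 242 and 219 in the mock libraries and 338, 322 and 322 in the Dex libraries. *ATHB8* made up 18.2% ± 1.3 of this sum in mock and 26.7% ± 0.6 in Dex libraries (SD, n = 3). *CNA*, whose own level overlapped between groups, went from 33.5% ± 1.0 to 22.01% ± 0.5 of the sum (SD, n = 3). The summed level of *ZPR1*, *ZPR2* and *ZPR3* was 144, 125 and 142 in the mock libraries and 147, 162 and 151 in the Dex libraries, of which *ZPR2* made up 68.9% to 85.3% in mock and 74.1% to 76.6% in Dex libraries. The little zipper sum amounted to 0.68, 0.52 and 0.65 of the HD-ZIP III sum in the mock libraries and to 0.43, 0.50 and 0.47 in the Dex libraries. The ratio was thus lower in each Dex library than in each mock library, but mock replicate 2 at 0.518 and Dex replicate 2 at 0.503 lay close together. These sums were not tested, and they are of transcripts, not of proteins.

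**Figure D4:**
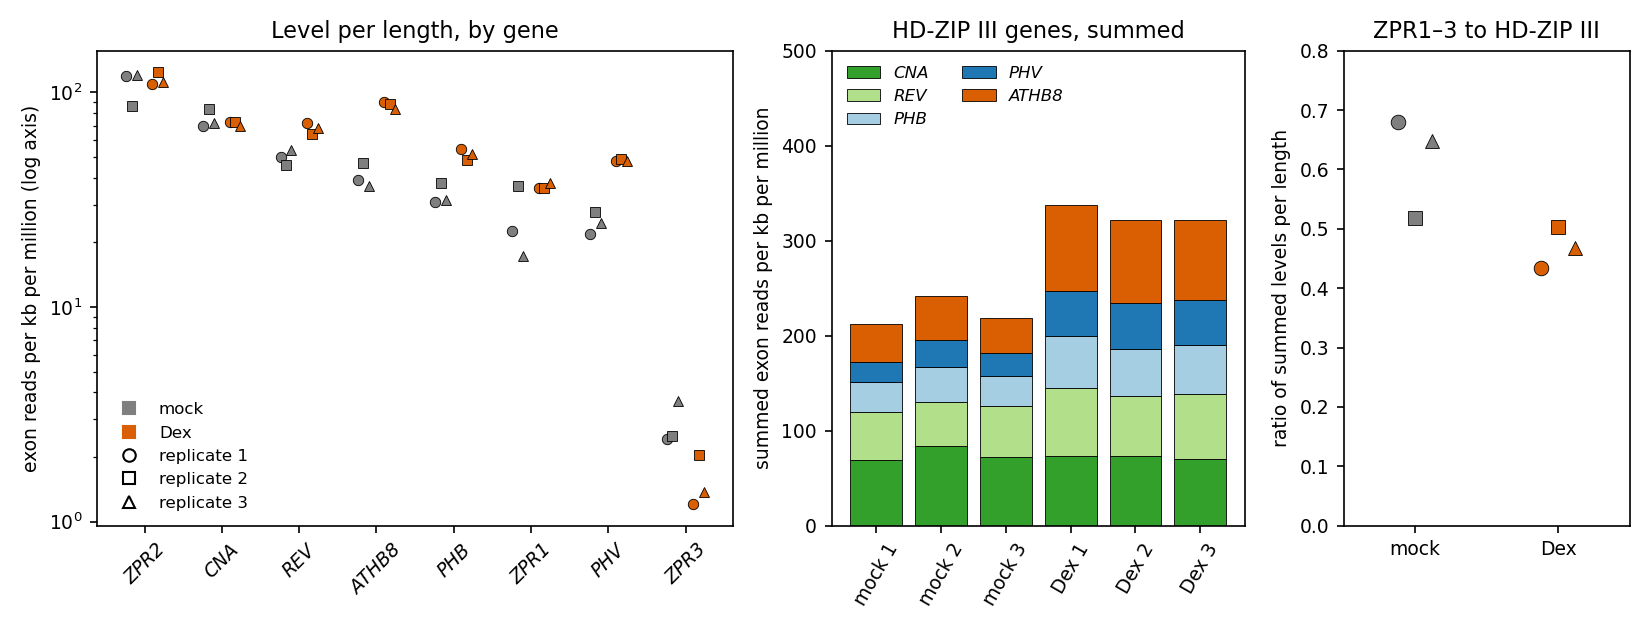
Left, level per length (exon reads per kilobase of exon, scaled as CPM) of the 8 genes with an exon length (log axis) in each mock (grey) and Dex (orange) library. Middle, the same levels of the 5 HD-ZIP III genes stacked for each library, where the sum is 212 to 242 in mock and 322 to 338 in Dex libraries, and right, the ratio of the summed little zipper to the summed HD-ZIP III level, which is 0.52 to 0.68 in mock and 0.43 to 0.50 in Dex libraries.

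The patterns over all 6 libraries were compared by Pearson's r of log2 CPM, as a description, against 18273 genes with a mean of at least 1 CPM. Because a shared difference between 3 mock and 3 Dex libraries alone gives a high r, these values carry no test. The genes most like *ATHB8* were *AT1G68810* (*TMO5-LIKE1*), which encodes a bHLH protein, *AT4G14900* and *IQD6*, at r = 0.998 to 0.999. Those most like *PHV* were the homeobox gene *WOX11*, *ENODL14* and *BEH3* (r = 0.999 each), and those most like *PHB* were *SD2-5*, the *AUX/IAA* gene *SHY2* and *SQN* (r = 0.998 to 1.000). For *REV* they were *GFAT*, *AT2G41380* and *AT3G62110*, at r = 0.993 to 0.997. Among the members *ATHB8* had r = 0.99 with *PHV*, 0.98 with *PHB* and 0.87 with *REV*, but −0.14 with *CNA* and 0.80 with *ZPR1*.

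The genes around this module were counted by lists. None of the 7 tested genes of microRNA production and action passed in either direction with edgeR, DESeq2 or limma-voom, although 3 had an unadjusted p under 0.05 in edgeR. *HYL1*, which assists the processing of microRNA precursors, passed as higher when mock replicate 2 was left out (0.41 on the log2 scale, adjusted p = 0.0481), as did 9.79% of all tested genes. All 7 had a log2 fold change above 0, with a median of 0.26 against −0.01 over all tested genes. *AGO10*, *HYL1*, *SE*, *HEN1* and *HST* were higher in every Dex library than in every mock library, as for 15.2% of all tested genes. *AGO1*, the main slicer of microRNA targets, had 212, 254 and 235 CPM in the mock libraries and 237, 270 and 268 CPM in the Dex libraries (0.14 ± 0.11 (SE) on the log2 scale, adjusted p = 0.500), and *SE*, a cofactor of microRNA processing, had 0.31 ± 0.14 (SE) on the log2 scale (adjusted p = 0.240). The 9 *MIR165* and *MIR166* loci had no reads in any library, which allows up to 3 reads over the 6 libraries or 0.0195 CPM. All 9 lacked an exon length in the tables, so whether reads of their precursors were counted at all is not known, and these libraries say nothing of mature microRNAs.

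Of genes known as targets or downstream of HD-ZIP III proteins, 5 of 12 tested genes rose and none fell in edgeR. The median change of the 12 was 0.44 on the log2 scale. For comparison, edgeR called 4.63% of all tested genes higher and 2.07% lower. The paper lists *IAA20* and *IAA30* among genes altered in the *pPXY:GR-ARF5∆III/IV* line, and names *ACL5* and *BUD2* as induced in it. The list was chosen with earlier results of these data known, so 5 of 12 is not an independent test. The Aux/IAA genes *IAA30* and *IAA20*, whose proteins lack the degron of typical family members, rose most. *IAA30* had 8.99, 5.997 and 8.49 CPM in the mock and 41.1, 43.7 and 46.0 CPM in the Dex libraries (2.48 ± 0.16 (SE) on the log2 scale, adjusted p = 8.07e-05). *IAA20* had 3.61, 1.63 and 2.93 CPM in the mock and 12.7, 11.3 and 10.1 CPM in the Dex libraries (2.06 ± 0.28 (SE) on the log2 scale, adjusted p = 0.00430). *LAX2*, an auxin influx carrier of vascular tissue, had 154, 201 and 156 CPM in the mock and 612, 522 and 539 CPM in the Dex libraries (1.71 ± 0.14 (SE) on the log2 scale, adjusted p = 0.000355). *BUD2*, which provides a precursor for thermospermine, rose by 0.88 ± 0.14 (SE) on the log2 scale (adjusted p = 0.00876), and the thermospermine synthase gene *ACL5*, which limits xylem differentiation, rose by 0.59 ± 0.13 (SE) (adjusted p = 0.0325). The call of *ACL5* was lost when any library other than mock replicate 2 was left out (adjusted p = 0.0574 to 0.114). Thus the groups of *IAA30*, *IAA20*, *LAX2*, *BUD2* and *ACL5* did not overlap, with Dex above mock libraries as for 15.2% of all tested genes. *HAT3*, an HD-ZIP II gene and known REV target, did not pass in edgeR (−0.78 ± 0.21 (SE) on the log2 scale, adjusted p = 0.0646) but passed as lower with DESeq2 (adjusted p = 0.0160) and without mock replicate 2 (adjusted p = 0.0203), where 7.96% of all tested genes were called lower. Without mock replicate 2 *HAT2* and *STM* also passed as higher (adjusted p = 0.0111 and 0.0367), as did 9.79% of all tested genes. *TAA1* had few reads (2 to 84 in a library), its groups overlapped, and it did not pass in edgeR with all libraries (adjusted p = 0.178). Without mock replicate 3, the highest mock library for this gene, *TAA1* passed as higher (adjusted p = 0.0347), in a fit that called 546 genes higher. Several of the genes that rose are also known to respond to auxin or to ARF5, and the route by which they rose was not tested.

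Of leaf polarity genes, most of which act in the abaxial domain opposite HD-ZIP III genes, none of 9 tested passed with edgeR, DESeq2 or limma-voom (2 at an unadjusted p under 0.05 in edgeR), with a median log2 fold change of 0.17. *ARF4* had 230, 348 and 218 CPM in the mock and 316, 324 and 306 CPM in the Dex libraries (adjusted p = 0.441), where mock replicate 2 was again unlike the other mock libraries. Without that library *ARF4* and *KAN3* passed as higher, at 0.49 and 0.68 on the log2 scale (adjusted p = 0.0132 and 0.0316), as did 9.79% of all tested genes. *ARF3* had a log2 fold change of −0.29 ± 0.11 (SE) (adjusted p = 0.155). None of the 9 tested HD-ZIP IV genes, which encode the class closest to HD-ZIP III in domain structure and act in the epidermis, passed either, nor had any an unadjusted p under 0.05 in edgeR. Their median log2 fold change was 0.01, and the most abundant, *ANL2* and *HDG1*, had adjusted p of 0.664 and 0.988. Among other microProteins, small proteins that like the little zippers block transcription factors by dimerizing with them, 1 of 9 tested genes rose and none fell in edgeR. This was *PAR2*, an antagonist of bHLH proteins, with 9.08, 9.97 and 12.9 CPM in the mock and 23.7, 20.5 and 19.8 CPM in the Dex libraries (1.00 ± 0.16 (SE) on the log2 scale, adjusted p = 0.00900). *IBH1* and *MIF1*, the most abundant per length of that list, had log2 fold changes of −0.22 ± 0.09 and −0.19 ± 0.11 (SE) and did not pass (adjusted p = 0.204 and 0.322). *MIF2*, of the same list, had 26.9, 8.18 and 28.2 CPM in the mock and 6.95, 9.06 and 8.52 CPM in the Dex libraries. Mock replicate 2 was as low as the Dex libraries, and the change did not pass (−1.36 ± 0.39 (SE) on the log2 scale, adjusted p = 0.0767), whereas *MIF2* passed as lower with DESeq2, with no filter on low counts and without mock replicate 2 (adjusted p = 0.00361, 0.0488 and 0.000104). Without that library 7.96% of all tested genes were called lower. The AP2 domain genes *DRN* and *DRNL*, whose proteins are known to bind HD-ZIP III proteins, were not tested, since *DRNL* had no reads and *DRN* reached at most 0.257 CPM in a library.

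**Figure D5:**
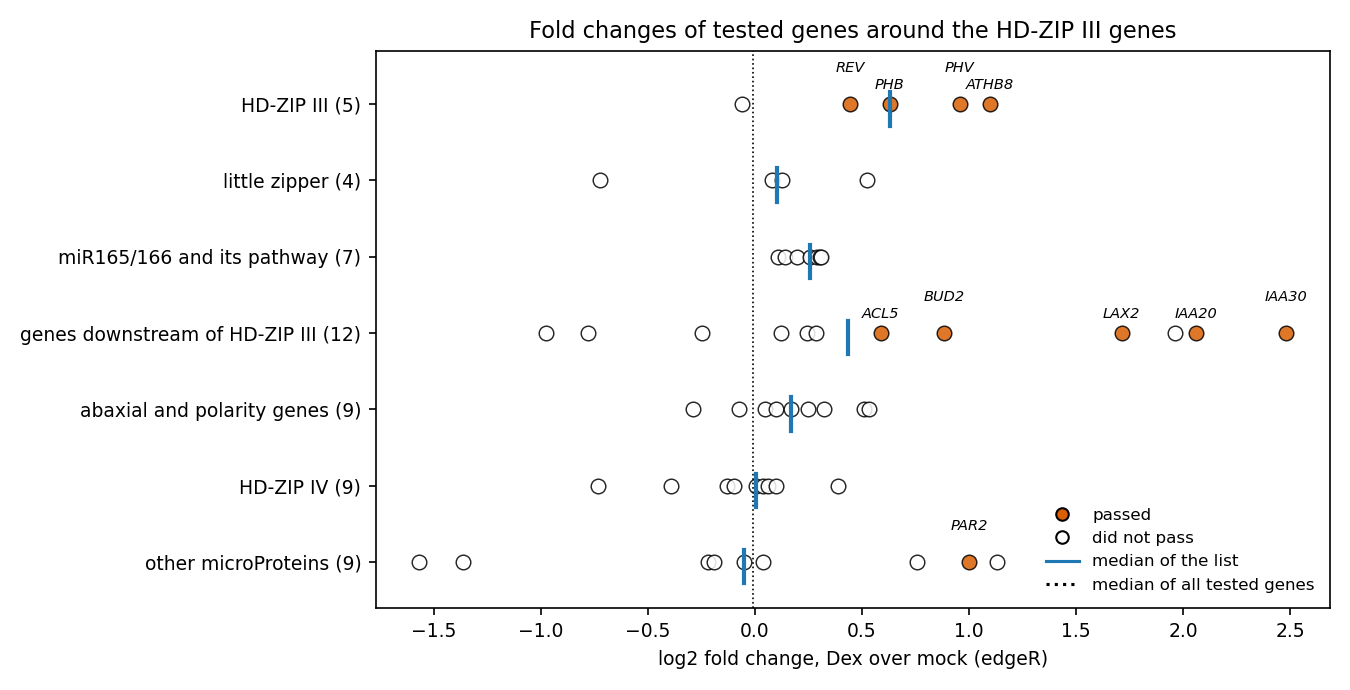
Log2 fold changes of Dex over mock (edgeR) for the tested genes of each list, with the number tested in parentheses, orange where a gene passed and a blue bar at the median of the list. HD-ZIP III genes have a median of 0.63 and genes downstream of them 0.44, with 4 of 5 and 5 of 12 passing, against a median of −0.01 over all tested genes. Of all tested genes 4.63% were called higher.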

How the data were processed

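RNA was sequenced from 3 mock and 3 Dex libraries. RNA preparation is described with 3 plants per replicate, while the series design speaks of pooled RNA of 3 samples, so p-values measure the spread between these libraries. The authors made strand-marked libraries, sequenced single reads and aligned them to TAIR10 with CLC Genomics Workbench. The deposited read counts are per gene, per exon and of unique reads, and the RPKM values deposited by the authors were not used in the tests. Of 33323 entries 5 without a gene name (0.0803% to 0.0998% of reads) were left out. Total gene reads were scaled with TMM factors (0.969 to 1.04), filtered (minimum count 10, total 15) and fitted in R 4.3.3 with edgeR 4.0.16 (quasi-likelihood F-test), with Benjamini-Hochberg adjustment over 19347 genes and a threshold of 0.05. The test was checked on simulated data. Levels per length used exon reads and TMM-scaled library sizes, and log2 CPM a prior count of 2. Counting intervals and bounds cover counting error only. Alternatives were DESeq2 1.42.0, limma-voom (limma 3.58.1), RLE factors, library totals alone, no or another filter, exon or unique reads, a replicate block, an adjusted p under 0.01 and leaving out each library. Named genes are the 9 members, *ARF5*, the 3 genes most correlated with each member that passed, and, for each list, the genes of smallest adjusted p among those that passed (at most 4), or the 2 of highest level per length if under 2 passed. *AT5G60700*, *ACL5*, *HYL1*, *AGO10*, *HEN1*, *HST*, *HAT3*, *HAT2*, *STM*, *TAA1*, *KAN3*, *MIF2*, *VND6*, *PDF1* and *GRP17* were named after their values were seen. Members and lists were chosen with earlier results of these data known. Protein comparisons were not made, and identity is of coding bases instead. Sequences are of TAIR10.1, which held 32828 of the gene identifiers. Libraries of the *p35S:Myc-GR-bdl* line were left out.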

Additional observations from a re-analysis of the deposited data

How the results depend on the processing

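*ATHB8* and *PHV* kept their direction and passed under all 15 alternatives to the fit, with log2 fold changes of 1.03 to 1.21 and 0.87 to 1.04. Genes called higher numbered 895 and lower 400, against 1399 and 948 with DESeq2, 305 and 62 at an adjusted p under 0.01, and 337 to 1918 and 70 to 1559 with 1 library left out, highest without mock replicate 2. HD-ZIP III genes called higher numbered 4, against 2 at an adjusted p under 0.01, 3 with the replicate block and 2 to 4 with 1 library left out. Little zipper genes called higher numbered 0, against 0 to 1 with 1 library left out. With 1 library left out, log2 fold changes ranged from 0.57 to 0.73 for *PHB*, from 0.39 to 0.50 for *REV*, from 0.31 to 0.88 for *ZPR1*, from −0.12 to 0.03 for *CNA*, from −0.06 to 0.16 for *ZPR2* and from −0.21 to 0.35 for *ZPR4*. The sign changed for *CNA* (0.0255) and *ZPR2* (−0.0638) without mock replicate 2 and for *ZPR4* (−0.21) without mock replicate 1; none of these passed with any set of libraries. The replicate numbers gave no sign of pairing the libraries. Deviations of same-numbered mock and Dex libraries correlated at −0.10, 0.0002 and 0.21, within the range of −0.24 to 0.22 for differently numbered ones. So few values cannot exclude a pairing. With the replicate block 613 genes were called higher and 261 lower, and *REV* had a log2 fold change of 0.45 and no longer passed (adjusted p = 0.0841). With uniquely mapped exon reads, scaled by their own totals, the summed levels per length in Dex libraries were 344 for HD-ZIP III and 161 for little zipper genes. Fewer libraries leave fewer degrees of freedom; the cause of other changes was not tested. Without mock replicate 2, 1 microRNA pathway gene and 2 polarity genes were called higher and 1 downstream gene and 1 microProtein gene lower, against 0 of each in edgeR with every library. In that fit 9.79% of all tested genes were called higher and 7.96% lower. *ZPR3* had the fewest reads of the 9 genes (17 to 41 in a library) and the largest SE (0.42).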
